A study of Mus musculus with 6 samples.

Results

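Claudins, cadherins, occludin and the zonula occludens scaffolds build the junctions that join neighbouring epithelial cells. Claudins span the membrane in tight junctions, where some seal the gap between cells and others form pores for ions and water, and occludin and the ZO proteins (Tjp genes) tie these strands to actin. Classical cadherins bind their like on the next cell in adherens junctions and hold catenins on the inside. In colon these junctions limit what passes from the lumen into the mucosa, and in liver they close the bile canaliculi between hepatocytes. The members described here are the genes whose probe sets on the Affymetrix Mouse Genome 430 2.0 array carry exactly 1 symbol, a claudin, cadherin or Tjp name with a number or Ocln. They were 48 of 18194 genes, read by 78 of 34958 probe sets: 24 claudins, 21 cadherins and, of the occludin and ZO group, Ocln, Tjp1 and Tjp3.

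All animals were male C57BL/6J mice aged 7 weeks, and all ate a basal diet. The CON mice drank plain water. The DSS mice had plain water for 7 days and then 1.5% dextran sodium sulphate, a polymer that damages colonic epithelium, for 10 days. The DSSPAR mice had 2% parsley in the diet from the start. Their treatment protocol gives 7 days of plain water too and then 9 days of the same polymer at 1.5%. Diet and length of exposure therefore cannot be told apart. RNA of 7 mice was pooled for each array, with 1 array per group in colon and 1 in liver, so no difference below has a replicate check or a p-value, and a pool gives no spread between animals. In bulk tissue, fewer cells of a type and less RNA per cell cannot be told apart.

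Values are MAS5 intensities in arbitrary units, and the tissues were scaled apart, so levels are not compared between colon and liver or between probe sets of different genes. A gene counted as measured when it lay above a floor of 25.1 in colon and 96.6 in liver, set at the median of all intensities of that tissue. A gene with several probe sets is given by the one of highest mean log2 intensity, and where the dimmer array reached no higher than the floor the fold is a lower bound, written "at least". The array medians were 22.5 to 27.3 in colon and 86.5 to 107 in liver. All 16 colon epithelium markers lay above the floor in every colon array and all 11 hepatocyte markers in every liver array. The lists are not exclusive to a tissue: 10 of the 16 colon epithelium markers were above the floor in at least 1 liver array, with Muc2, Vil1 and Slc26a3 under it, and 6 of the 11 hepatocyte markers in at least 1 colon array, with Alb and Apoa1 under it. In the colon DSS pool, 8 of 10 enzyme genes typical of exocrine pancreas and 3 of 5 adipocyte markers exceeded CON by 2-fold or more. Of all 11952 measured genes, 5.18% did. The summed level was 2771, 4432 and 2247 in CON, DSS and DSSPAR for the first list and 784, 1800 and 1086 for the second. Where these transcripts came from, and their part in the member values, was not tested.

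In colon, 24 of the 48 members lay above the floor in at least 1 array and 20 of them in all 3. The other 24 stayed at or under 22.3, among them Cldn10, Cldn11, Cldn18, Cdh3, Cdh15 and Cdh16. Per array, 43.8% to 45.8% of members were above the floor, against 61.3% to 62.8% of all genes. In liver, 27 members were above the floor in at least 1 array and 14 in all 3. The 21 others stayed at or under 94.8 and included Cldn7, Cldn8, Cldn23 and Cdh17, all of which were above the floor in every colon array.

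With values raised to the floor, no junction gene measured in colon was past 2-fold in the DSS pool. Of the 48 members 23 were measured in DSS against CON, 3 of them (Cdh6, Cldn1 and Cldn22) only as bounds. A bound does not place a gene within 2-fold, and Cldn1 had a log2 ratio of 1.71 without the floor. Of the 23 measured, 0 exceeded CON by 2-fold and 0 lay 2-fold under it, where 5.18% of 11952 genes were higher and 1.97% lower. The median log2 ratio was -0.04 for the members and 0.04 for all genes. At a 1.5-fold threshold, added after the values were seen, 4 of 23 members (17.4%) and 20.5% of all genes were past it. The members past it were Cldn15 and Cldn23, lower in DSS, and Cdh11 and Cldn1, higher in DSS. These shares lie near the background.

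Epithelial cadherins and sealing claudins differed little between the colon pools. Cdh1, E-cadherin, which holds epithelial cells together in adherens junctions, was at 5204 in CON, 4239 in DSS and 4662 in DSSPAR. Cdh17, a cadherin of intestinal epithelium that does not bind catenins, was at 1855, 2084 and 2121 in the same order. Cldn7, a claudin found along the lateral membrane of colonocytes, was at 3894, 4346 and 4244. The highest and lowest arrays differed by at most 1.23-fold for each of these 3 genes. Cldn3, a sealing claudin, was at 1700, 1857 and 1775, and its 3 further probe sets gave log2 ratios of DSS to CON of -0.23, 0.04 and 0.07, around the 0.13 of the brightest. Cldn4, another sealing claudin, was at 182.4, 174 and 159.4. The 16 colon epithelium markers were more mixed, with 3 past 2-fold lower and 0 higher in DSS than in CON. Of all 11952 genes, 1.97% were lower and 5.18% higher. The markers had a median log2 ratio of -0.08 and a range from -2.82 (Fabp2) to 0.84 (Aqp8). Their summed level was 64166, 58054 and 63942, and Epcam was at 5827, 5720 and 6157.

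**Figure D1:**
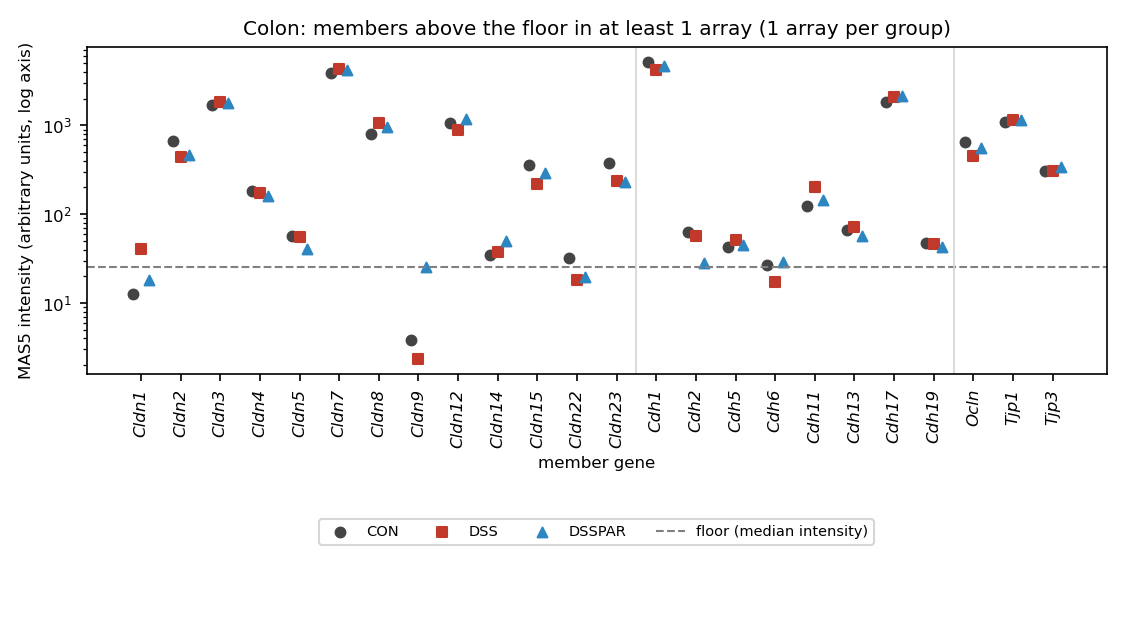
MAS5 intensity (log axis) of the 24 members above the floor in at least 1 colon array, with 1 point per array (CON circles, DSS squares, DSSPAR triangles) and the floor of 25.1 as a dashed line. The 3 points nearly coincide for Cdh1, Cldn7, Cldn3, Cdh17 and Tjp1 and spread most for dim genes such as Cldn1, Cldn9 and Cdh2.

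The scaffolds and further barrier claudins follow. Tjp1, ZO-1, which links claudins and occludin to actin, was at 1085 in CON, 1139 in DSS and 1157 in DSSPAR. Tjp3, ZO-3, was at 305.6, 308.9 and 339.4. Cldn12, a claudin that lacks the usual tail for binding ZO proteins, was at 1077, 885.1 and 1180, with DSS the lowest array. Cldn8, a barrier claudin of the distal colon, was at 807.8, 1070 and 954.8, with DSS the highest.

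The pore claudins and occludin were lower in the colon DSS pool, though by less than 2-fold. Cldn2, which forms a pore for cations and water and is best known for its increase in human inflammatory bowel disease, was at 662.5 in CON, 443.1 in DSS and 463.5 in DSSPAR, a log2 ratio of DSS to CON of -0.58. Its dimmer probe set gave 58.87, 51.97 and 38.02 and a ratio of -0.18. Both probe sets thus placed CON highest, and they differed on DSSPAR against DSS, at 0.06 and -0.45. Cldn15, the other cation pore of the gut, was at 357.4, 216.2 and 293.5, a ratio of -0.73. Cldn23 was at 380.7, 239.4 and 233.0, a ratio of -0.67, with both polymer-treated pools low. Ocln, occludin, was at 656.5, 454.5 and 552.2, and its other probe set at 347.8, 219.7 and 254.6, ratios of -0.53 and -0.66. Each of the 4 genes was lower in DSS than in CON under all 7 alternative settings. For comparison, the log2 ratios of probe sets for the same gene scattered with a robust SD of 0.27 per probe set in this comparison, over 4333 genes with pairs, an error that leaves out differences between animals and arrays.

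In DSSPAR against DSS, Cldn15 was 1.36-fold higher (log2 0.44) and Ocln 1.22-fold higher, with 0.28 and 0.21 for its probe sets, while Cldn23 differed by -0.04 on the log2 scale. Cldn12 was 1.33-fold higher on its brightest probe set, with log2 ratios of 0.41 and 0.43 for its probe sets. All 3 colon comparisons share arrays with each other, so a low value in the DSS array enters both DSS comparisons.

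The promoters of the pore claudins, occludin and Cldn7 are shown because transcription factors known to act on junction genes were among the pathway genes that differed most in colon. Sequences are RefSeq's on GRCm38.p6, 5′ to 3′ on the gene's strand, from 250 bases before the start to 50 bases from it on. Capitals mark exact matches on either strand to 3 motifs, none of which overlapped another in these windows. The first, spelled CAGGTG, is the E-box that repressors of the SNAI and ZEB families bind. For intestinal CDX homeodomain factors the letters searched were TTTATG. The core promoter element was searched with its usual spelling, TATAAA. The windows are Cldn2 on the plus strand at chrX:139800558-139800857, Cldn15 on the plus strand at chr5:136967619-136967918, Ocln on the minus strand at chr13:100552449-100552748 and Cldn7 on the plus strand at chr11:69965171-69965470.
Cldn2: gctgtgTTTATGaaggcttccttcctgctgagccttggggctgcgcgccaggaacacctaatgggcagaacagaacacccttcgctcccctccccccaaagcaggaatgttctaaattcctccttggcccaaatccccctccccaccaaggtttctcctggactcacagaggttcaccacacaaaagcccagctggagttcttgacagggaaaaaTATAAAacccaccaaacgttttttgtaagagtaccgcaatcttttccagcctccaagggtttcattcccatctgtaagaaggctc
Cldn15: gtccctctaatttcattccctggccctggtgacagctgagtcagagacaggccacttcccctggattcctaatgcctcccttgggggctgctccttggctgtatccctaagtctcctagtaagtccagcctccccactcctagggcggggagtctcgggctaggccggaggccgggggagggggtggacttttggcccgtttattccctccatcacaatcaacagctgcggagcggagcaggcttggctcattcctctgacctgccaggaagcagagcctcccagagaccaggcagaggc
Ocln: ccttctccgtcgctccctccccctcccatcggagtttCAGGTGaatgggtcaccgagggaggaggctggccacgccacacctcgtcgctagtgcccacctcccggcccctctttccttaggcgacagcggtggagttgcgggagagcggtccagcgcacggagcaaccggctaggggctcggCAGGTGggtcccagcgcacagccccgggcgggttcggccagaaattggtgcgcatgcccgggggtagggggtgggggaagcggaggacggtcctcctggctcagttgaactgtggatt
Cldn7: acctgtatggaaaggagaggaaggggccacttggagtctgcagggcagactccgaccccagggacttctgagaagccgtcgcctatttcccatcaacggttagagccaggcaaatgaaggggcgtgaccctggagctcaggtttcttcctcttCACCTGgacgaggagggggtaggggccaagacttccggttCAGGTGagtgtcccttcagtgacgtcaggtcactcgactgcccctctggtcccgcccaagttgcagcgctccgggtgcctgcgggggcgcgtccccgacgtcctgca
Cldn7 and Ocln have a second window each. That of Cldn7, at chr11:69964529-69964828, held none of the 3 motifs. That of Ocln, which overlaps the one shown, held CAGGTG 8 bases after its start. This is the same site as the E-box 213 bases before the start of the Ocln window shown. Cldn2 held the CDX-type letters 244 bases before its start and the TATA box letters 35 bases before it. The Ocln window shown held E-boxes 213 and 68 bases before its start, and the Cldn7 window shown held them 97 bases before on the minus strand and 57 bases before on the plus strand. The Cldn15 window held none of the 3 motifs, which says only that these letters are not in this window. Of the 48 members, 33 had a window, 45 in all. Cdh1, Cdh17 and Cldn23 had none, so whether their promoters hold these motifs was not examined. CAGGTG occurred in 12 of the 45 (26.7%) and in 20.2% of all 32851 promoter windows, TTTATG in 2 (4.44%) and 11.9%, and TATAAA in 2 (4.44%) and 13.6%. The 12 windows with CAGGTG came from 8 of the 33 genes, and both Ocln windows count the site they share. A match describes letters and is no evidence of binding.

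Among 19 measured regulators of junction genes, Cdx2 and Snai2 were past 2-fold in colon. In DSS against CON, 1 was higher and 1 lower, where 5.18% of 11952 genes were higher and 1.97% lower. The counts were the same in DSSPAR against CON, where 3.51% of 11808 genes were higher and 2.1% lower. Cdx2, a homeodomain factor of intestinal identity that is also on the colon epithelium marker list, was at 655.3 in CON, 294.1 in DSS and 205.8 in DSSPAR, 2.23-fold lower in DSS and 3.18-fold lower in DSSPAR than in CON. Its other probe set gave 247.4, 122.1 and 61.69, the same order. Snai2, Slug, a zinc finger repressor of E-cadherin, was at 55.15, 206 and 126.3, 3.74-fold higher in DSS and 2.29-fold higher in DSSPAR than in CON. Its dimmer probe set was at 23.39, 65.05 and 38.43, with CON under the floor. It gave log2 ratios of at least 1.37 and at least 0.62 for the same comparisons. Snai1 and Twist1 lay under the floor in all colon arrays, and Zeb2 was at 76.49, 143.6 and 75.58. Cdh1, the known target of these repressors, was 1.23-fold lower in DSS than in CON, and whether any of these genes bears on another was not tested.

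Partners of the members were counted in the same way. Of 26 measured tight junction partners, 0 were past 2-fold in any colon comparison, with a median log2 ratio of -0.03 in DSS against CON. The most different there were Lsr, the angulin of tricellular junctions, at 298.1 in CON and 184.2 in DSS, and Cgnl1, paracingulin, at 94.01 and 154.8. Of 16 measured adherens junction partners, 0 were past 2-fold in colon, with a median of -0.05 in DSS against CON. Ctnnb1, beta-catenin, was at 4414, 4494 and 4366, and Ctnna1, alpha-catenin, at 3304, 3016 and 3283. Nectin2 and Nectin3, which adhere beside cadherins, were 1.54-fold and 1.52-fold lower in DSS than in CON.

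**Figure D2:**
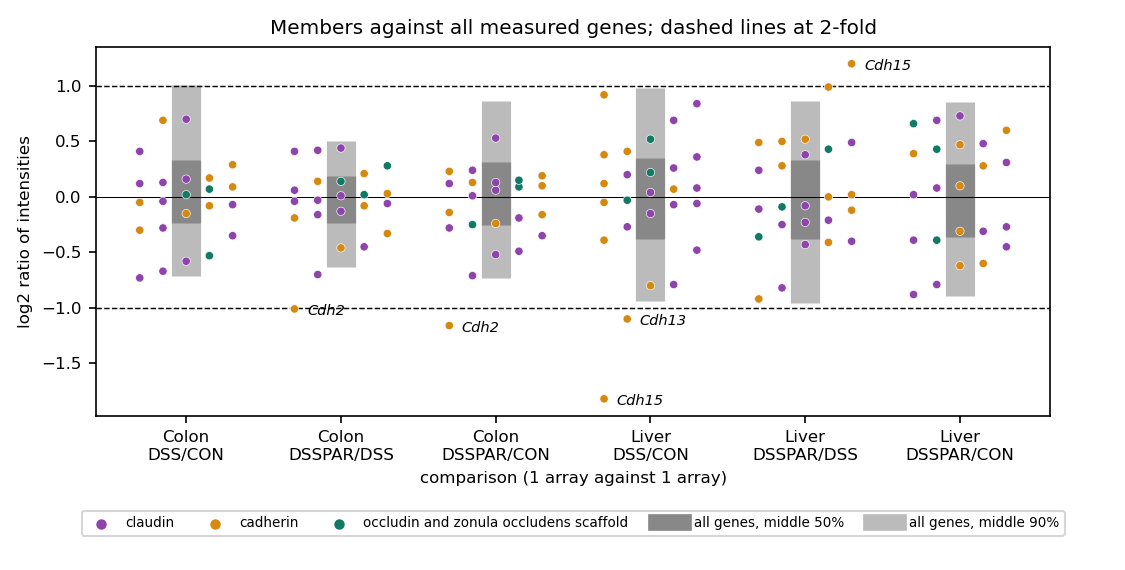
Log2 ratios of members (points, coloured by family) in the 6 comparisons, over bars that hold the middle 50% and the middle 90% of all measured genes, with dashed lines at 2-fold. Only Cdh2 in colon and Cdh13 and Cdh15 in liver pass the lines.

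Against DSS, the colon DSSPAR pool had 0 of 23 members at least 2-fold higher and 1 lower, where 0.392% of 11730 genes were higher and 1.24% lower, and the members' median was -0.03 against -0.01 for all genes. Against CON it had 0 of 23 higher and 1 lower, where 3.51% of 11808 genes were higher and 2.1% lower, and the medians were 0.01 and 0.03. The gene was Cdh2 in both. Cdh2, N-cadherin, the classical cadherin of neurons and mesenchyme, was at 62.76 in CON, 56.43 in DSS and 28.01 in DSSPAR, 2.01-fold lower than in DSS and 2.24-fold lower than in CON. The DSSPAR value lay just above the floor of 25.1, and the other Cdh2 probe set was under the floor in all 3 arrays. The difference from DSS was under 2-fold with each of the 3 other scalings, at log2 ratios of -0.81, -0.92 and -0.81, and the difference from CON with median centring and quantile normalization, at -0.88 and -0.94. With a gene's probe sets averaged, the DSSPAR level lay under the floor. The ratios of -0.08 to DSS and -0.44 to CON are then only bounds, and the differences are at least that large.

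Markers of enteric neurons and glia were lower in the same array. All 10 that were measured in DSSPAR against DSS were lower, with a median log2 ratio of -0.56, where 6060 of 11730 genes were lower. Against CON 10 of 11 were lower, where 5597 of 11808 genes were. The array medians of DSSPAR differed by log2 ratios of -0.2 from DSS and -0.28 from CON. Ratios to DSS as small as those of S100b (-0.07) and Prph (-0.2) therefore depend on the scaling. Snap25, a protein of synaptic vesicle fusion, was 2.1-fold lower than in DSS, at 98.53, 118.5 and 56.39 in CON, DSS and DSSPAR. The summed level of the list was 1054, 1392 and 928, and Sox10, Gfap and Chat lay under the floor. Cdh19, a cadherin of Schwann cells and enteric glia, was at 47.37, 45.7 and 43.1. Other lists were lower in the same array too. Against DSS, 11 of 12 endothelial markers (median log2 ratio -0.54) and 9 of 11 fibroblast markers (-0.45) were lower, and against CON 9 of 10 smooth muscle markers (-0.52) were, beside -0.48 for the neural list. The part of any of these cell types in the Cdh2 difference was not tested.

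Members of stromal and vascular cells can be set beside their markers too. Cdh11, a cadherin of fibroblasts, was at 124 in CON, 200.6 in DSS and 145.8 in DSSPAR, with log2 ratios of DSS to CON of 0.69 and 0.31 for its probe sets. Of 11 fibroblast markers 10 were higher in DSS than in CON, 3 of them past 2-fold, and their summed level was 7731, 13017 and 10151. Of all 11952 genes in this comparison, 6462 were higher in DSS and 5.18% were past 2-fold higher. Cdh5, VE-cadherin of endothelium, was at 42.27, 51.6 and 45.31, and Cldn5, its tight junction counterpart, at 56.69, 55.07 and 40.32. Endothelial markers were summed at 751, 1168 and 731, with 4 of 12 past 2-fold higher in DSS than in CON, which neither member was. Of the 12 markers 11 were higher in DSS, with a median log2 ratio of 0.44, above the 0.29 of Cdh5 and the -0.04 of Cldn5. The largest ratios were those of Tek (1.19), Vwf (1.18), Plvap (1.13) and Eng (1.09). The smallest were those of Kdr (-0.05), Cd34 (0.19) and Flt1 (0.2). The share of these cells in the pools was not measured apart.

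**Figure D3:**
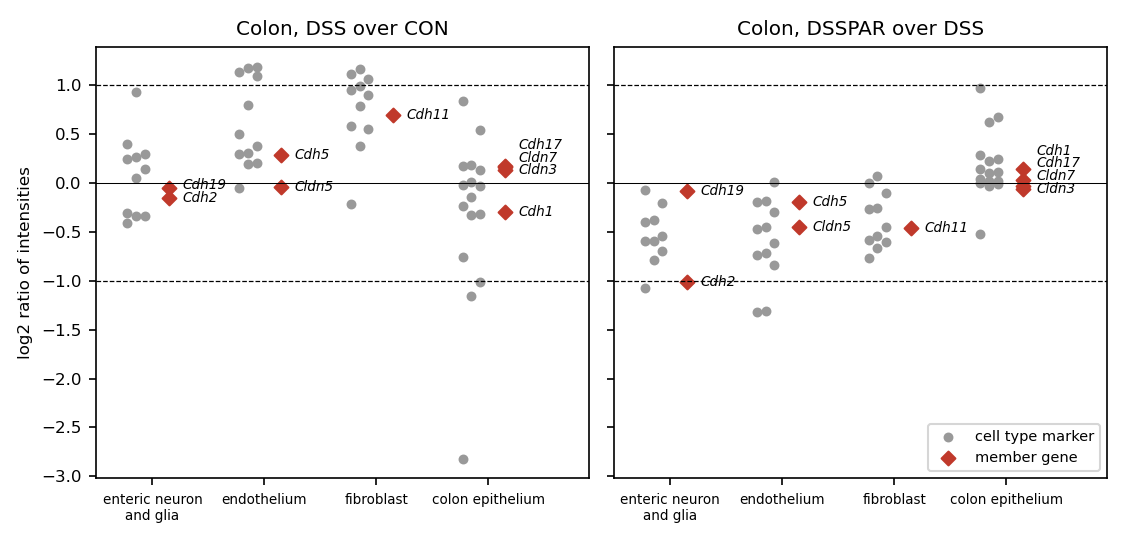
Log2 ratios in colon of cell type markers (grey circles) and of members known from the same cell type (red diamonds), for DSS over CON and DSSPAR over DSS, with dashed lines at 2-fold. Cdh2 sits at -1.01 in DSSPAR over DSS beside neural markers that all lie under 0, while Cdh1, Cdh17, Cldn3 and Cldn7 stay within 0.3 of 0 in both panels.

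The dim claudins lay near the floor. Cldn1, a barrier claudin, was at 12.51 in CON, 40.89 in DSS and 17.93 in DSSPAR, so that DSS was at least 1.63-fold above both others. This rests on a single probe set above the floor in DSS only. The further Cldn1 probe sets lay under the floor in all 3 arrays, the brightest of them at 11.75, 3.737 and 10.22. Cldn14, above the floor in all 3 arrays, was at 34.8, 37.73 and 50.4, 1.34-fold higher in DSSPAR than in DSS. Cldn9 and Cldn22 crossed the floor in 1 array each, at 25.27 in DSSPAR and 31.92 in CON.

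In liver, few measured members were past 2-fold. In DSS against CON, 0 of 26 members were past 2-fold higher and 2 lower, where 4.73% of 13034 genes were higher and 4.2% lower. In DSSPAR against DSS, 1 of 25 was higher and 0 lower, where 2.8% of 12398 genes were higher and 4.23% lower. In DSSPAR against CON, 0 of 23 were higher and 0 lower, where 3.26% of 12721 genes were higher and 3.45% lower. The members' median log2 ratios were 0.06, -0.08 and 0.08, against -0.02, -0.02 and -0.04 for all genes. At 1.5-fold the members past it were 7 (26.9%), 4 (16%) and 8 (34.8%), where 29.1%, 27.8% and 24.6% of all genes were.

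The members past 2-fold were cadherins of low intensity. Cdh15, M-cadherin of skeletal muscle, was at 341.1 in CON, 85.77 in DSS and 221.8 in DSSPAR, at least 3.53-fold lower in DSS than in CON and at least 2.3-fold higher in DSSPAR than in DSS. Cdh13, T-cadherin, a cadherin with a lipid anchor that binds adiponectin, was at 207.2, 88.75 and 136.6, at least 2.14-fold lower in DSS than in CON. A further Cdh13 probe set was at 91.56, 43.59 and 141.9, above the floor in DSSPAR only, and the remaining ones lay under the floor in all 3 arrays. DSS lay under the floor on every probe set of both genes. Both genes fell out of the count when the floor was set at the 75th percentile of 367, since all their values lie under it.

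The cadherins of liver parenchyma were brighter. Cdh1, borne by periportal hepatocytes and bile ducts, was at 2161 in CON, 1653 in DSS and 3274 in DSSPAR, 1.98-fold higher in DSSPAR than in DSS, with a log2 ratio of 0.99 that was 1.15 with median centring. Cdh2, which hepatocytes carry beside E-cadherin, was at 3559, 3432 and 4935 on its brightest probe set and 1443, 1392 and 1989 on the other, and both placed DSSPAR highest, with ratios to DSS of 0.52 each. Of the 4 measured cholangiocyte markers, Epcam was at 192.6, 188.8 and 190.1, Tspan8 at 357.8 in DSS and 298.2 in DSSPAR, past 2-fold over CON in both, Sox9 at 124.8, 199.9 and 89.74 and Prom1 at 137, 200.2 and 121.7, so 3 of the 4 were lower in DSSPAR than in DSS. Of 11 hepatocyte markers, 4 were higher and 7 lower in DSSPAR than in DSS, with a median log2 ratio of -0.25 and a range from -1.06 (Cyp3a11) to 1.46 (Pck1). The part of either cell type in the Cdh1 difference was not tested.

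**Figure D4:**
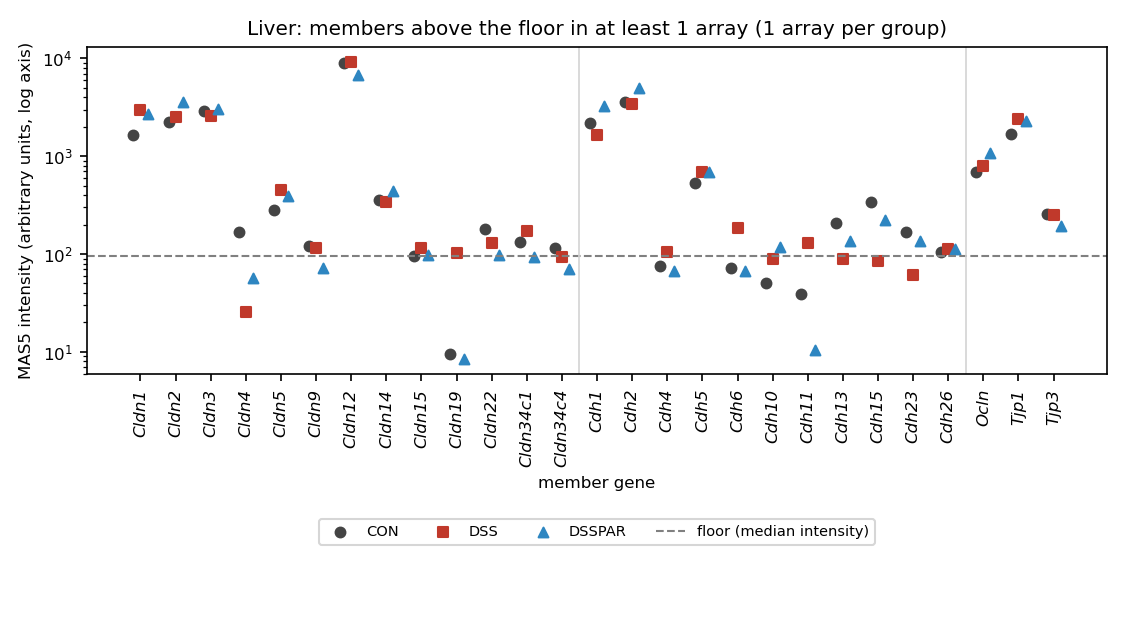
MAS5 intensity (log axis) of the 27 members above the floor in at least 1 liver array, with 1 point per array (CON circles, DSS squares, DSSPAR triangles) and the floor of 96.6 as a dashed line. Cdh1, Cdh2, Cldn2 and Ocln have DSSPAR as the highest array on the probe set shown, and Cdh15, Cdh13 and Cldn4 fall under the floor in DSS.

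Hepatic claudins and occludin depended on the probe set. Cldn1, a claudin of bile canaliculi, was at 1643 in CON, 2937 in DSS and 2722 in DSSPAR on its brightest probe set, 1.79-fold higher in DSS than in CON. Its next probe set was at 254.3, 122.9 and 229.8, with DSS the lowest, a log2 ratio of -1.05 against 0.84. Ocln was at 682.6, 796.6 and 1075 on its brightest probe set and at 460.6, 233.5 and 381.3 on the other, ratios of DSS to CON of 0.22 and -0.98. Cldn2, which pericentral hepatocytes express, was at 2215, 2545 and 3574 on one probe set and 258, 177.8 and 224.5 on the other, ratios of DSSPAR to CON of 0.69 and -0.2. For these 3 genes the sign of a liver difference from CON is therefore not settled by the array. DSSPAR against DSS had the same sign on both probe sets for Ocln (0.43 and 0.71) and Cldn2 (0.49 and 0.34).

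**Figure D5:**
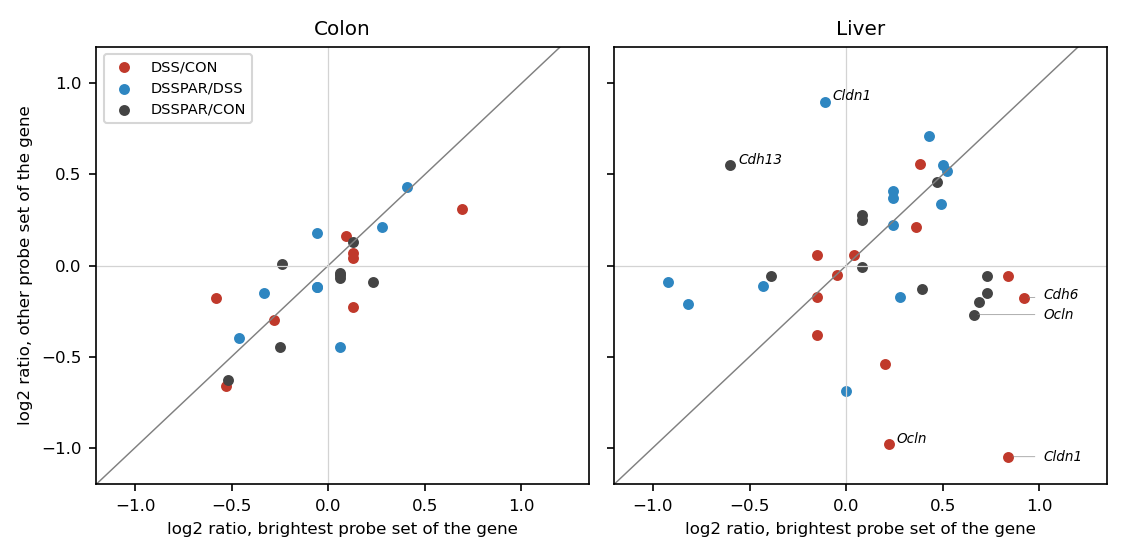
Log2 ratio of each further probe set of a member (vertical) against the brightest probe set of the same gene (horizontal), where at least 1 array of the comparison was above the floor, with the line of equality. Colon points lie near the line, while in liver Cldn1, Ocln, Cdh6 and Cdh13 (labelled where they differ by more than 0.9) lie far from it.

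Over all members with several measured probe sets, the signs were the same for 5 of 6 genes in colon DSS against CON and for 4 of 9 in liver. For DSSPAR against DSS they were the same for 4 of 6 in colon and 8 of 11 in liver, and for DSSPAR against CON for 3 of 6 and 2 of 8. The robust SD of paired probe sets over all genes was 0.3 to 0.36 in liver, against 0.24 to 0.28 in colon.

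The remaining bright hepatic members follow. Cldn12 was at 8941 in CON, 9209 in DSS and 6829 in DSSPAR, and its other probe set at 3905, 4060 and 3757, both with DSSPAR the lowest array. Cldn3 was at 2866, 2580 and 3038, and its 4 probe sets were all higher in DSSPAR than in DSS, by log2 ratios of 0.22 to 0.41. Tjp1 was at 1685, 2413 and 2267, 1.43-fold higher in DSS than in CON on its single probe set. Cldn5, read by 1 probe set, was at 282.3, 455 and 394.1, lowest in CON. Cdh5 was at 527.2, 688.1 and 688.4 on its brightest probe set and at 105.9, 156.3 and 79.3 on the other, which agreed in sign for DSS against CON only. Endothelial markers in liver were summed at 6952, 7363 and 6561, with 4 higher and 7 lower in DSS than in CON and 0 past 2-fold. Cldn14, a claudin of the inner ear, kidney and liver, was at 357.2, 340.4 and 443.8.

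Few junction partners in liver were past 2-fold, though more adherens junction partners were higher than lower in DSSPAR. Against DSS 13 of 16 were higher and 3 lower, with a median log2 ratio of 0.31, where 6011 of 12398 genes were higher. Against CON the counts were the same, with a median of 0.34, where 5878 of 12721 genes were higher. Of the tight junction partners, 14 of 24 were higher than in DSS and 16 of 23 higher than in CON. Of 24 tight junction partners in DSSPAR against DSS, 2 were past 2-fold higher and 0 lower. Of 12398 genes, 2.8% were higher and 4.23% lower. Magi1, a scaffold, was at 356, 221.4 and 463.3 in CON, DSS and DSSPAR, 2.09-fold higher in DSSPAR than in DSS. Arhgef2, a signalling protein held at tight junctions, was at 103.2, 65.86 and 248, at least 2.57-fold higher than in DSS. Its DSSPAR level was also 2.4-fold above CON, the only tight junction partner of 23 past 2-fold there, where 3.26% of 12721 genes were higher. Without probe sets of shared type, Magi1 was read at 178.1, 55.73 and 146.7. DSS lay under the floor there, so the log2 ratio of DSSPAR to DSS was at least 0.6. Another Arhgef2 probe set ran from 141.1 in CON to 39.98 in DSSPAR, the opposite way. Of 15 adherens junction partners in DSS against CON, 1 was past 2-fold higher and 0 lower. Of 13034 genes, 4.73% were higher and 4.2% lower. The partner was Afdn, afadin, which ties nectins to actin, at 940.8, 2556 and 1759 (2.72-fold higher). Its other probe set lay under the floor. Actn1, alpha-actinin, was at 792.8, 778.4 and 1360, 1.75-fold higher in DSSPAR than in DSS.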

How the data were processed

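The authors deposited MAS5 intensities on a linear scale, 1 value per probe set and array, made with MAS5 per the submitters' processing notes, with no version or scaling target stated there. Each of the 6 arrays held RNA pooled from 7 mice, and samples were grouped by the tissue and group in their labels. The members, lists, floor and comparisons were chosen with earlier results of these data known.

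Of 45101 probe sets, 34958 carried 1 symbol in the platform annotation, 932 several and 9211 were not listed. All 78 member probe sets were found by Entrez identifier in the gene table, with 0 symbols changed. Values under the floor (the median of a tissue's 3 arrays) were raised to it, and genes under it in both arrays of a comparison were left out of that comparison. Log2 ratios were computed on the deposited scaling, and a gene was counted at 2-fold. With 1 array per group no test was run, and the number of arrays limits the precision. Members past 2-fold and the 10 members of highest mean intensity per tissue are given in all arrays; others named were chosen after their values were seen. From each other list up to 4 genes of largest ratio per comparison are named, and defining markers. The procedure was tested on simulated data. Python 3.11.15, NumPy 2.4.6, pandas 2.3.3 and matplotlib 3.10.9 were used.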

Additional observations from a re-analysis of the deposited data

How the results depend on the processing

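With the deposited scaling and the floor, 0, 1 and 1 members were past 2-fold in colon (DSS against CON, DSSPAR against DSS, DSSPAR against CON) and 2, 1 and 0 in liver. Without a floor the counts were 9, 15 and 10 in colon and 18, 18 and 13 in liver, on members mostly under the floor. With the floor at the 75th percentile they were 0 in all 6 comparisons, since fewer members were measured. At 1.5-fold, a threshold added after the data were seen, they were 4, 2 and 2 in colon and 7, 4 and 8 in liver. In colon, Cdh2 in DSSPAR against DSS left the count (0 members) with median centring, centring on probe sets above the floor, quantile normalization and averaged probe sets. Against CON the count was 0 with median centring, quantile normalization and averaged probe sets. Averaging put Cdh2 in DSSPAR under the floor, so its ratios there are bounds. In liver DSS against CON the count was 1 (Cdh15) with median centring and with averaged probe sets. Median centring gave 2 (Cdh1 and Cdh15) in liver DSSPAR against DSS and 1 (Cldn1) in DSSPAR against CON. Leaving out probe sets of shared type gave 3 in liver DSS against CON, with Cldn1 then lower at -1.05. The log2 ratio of Afdn in liver DSS against CON turned to -0.3 with averaged probe sets. That average takes in a probe set under the floor in all 3 arrays, at 52.02, 12.55 and 4.174 in CON, DSS and DSSPAR. The ratio of Snai2 in liver DSSPAR against DSS, -1.03 on its brightest probe set, turned to 0.38 without shared probe sets. Why the Snai2 probe sets differ was not tested.

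Median centring shifts the log2 ratios by the difference of array medians, which was -0.08, -0.2 and -0.28 in colon and -0.15, -0.16 and -0.31 in liver in the same order of comparisons. Under it, genes past 2-fold higher and lower went from 46 and 146 to 108 and 79 in colon DSSPAR against DSS and from 415 and 248 to 890 and 121 in DSSPAR against CON. In liver they went from 616 and 548 to 854 and 349, from 347 and 525 to 674 and 332, and from 415 and 439 to 1007 and 188. In colon DSSPAR against DSS they were 68 and 99 with centring above the floor and 66 and 92 with quantile normalization. Over the log2 ratios of single members, their medians and the pathway genes past 2-fold, under the 7 other settings, 887 stayed within the probe set spread or on the same side of 2-fold, 62 moved, 16 dropped under 2-fold, 18 passed it and 2 reversed. No paired analysis was possible because each group had 1 array per tissue. Signal near the floor and a lone array per group limit what can be read.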

Other observations

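Junction adhesion molecules and nectins, which lie outside the members, differed mostly within 2-fold. Jam2, an adhesion molecule of endothelial tight junctions, was at 49.89 in CON, 61.33 in DSS and 38.12 in DSSPAR in colon, and at 216.6, 429 and 321.7 in liver, where DSS was 1.98-fold above CON. Jam3 was at 48.91, 58.81 and 34.91 in colon and under the floor in liver. In colon, F11r, the epithelial adhesion molecule JAM-A, was at 632.9, 536.9 and 566.1. Nectin3 in liver was at 3639, 5182 and 3057, and Nectin2 at 623.4, 362.9 and 556, with DSS the highest array for the first and the lowest for the second.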
